A study of Mus musculus with 3 samples.

Results

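The cells described here are CD4 T cells that carried transcripts of Havcr2, which encodes the inhibitory receptor Tim-3. They also carried a transcript of a cytotoxic granule gene (Prf1 or Gzmb) or of the chemokine gene Ccl3. A cell was included when it held at least 1 unique molecular identifier (UMI, one counted RNA molecule) of Havcr2 and at least 1 UMI of Prf1, Gzmb or Ccl3, and none of Foxp3, Cd8a or Cd8b1. By this rule 793 of 13337 cells of the first experimental day were included, 209 of 4979 in kidney and 584 of 8358 in spleen. They are called Havcr2+ cytotoxic cells below, and the remaining cells of the same organ and mouse are called other cells. The name is a label, since 232 of the 793 held Ccl3 without Prf1 or Gzmb. The mice were lupus-prone MRL/lpr animals with loxP-flanked Ezh2. The KO mice (iCD4-Cre Ezh2fl/fl) carried in addition a tamoxifen-inducible CD4-Cre/ERT2, and the WT mice were Ezh2fl/fl littermates without Cre. Both genotypes received oral tamoxifen at 300 mg/kg on 3 days per week in alternate weeks to 24 weeks of age, from 10 weeks (preventative) or 14 weeks (therapeutic), and the start that applied to each mouse is not given in the sources used here. The floxed allele had been backcrossed for 6 generations. CD4+ T cells were sorted from kidney and spleen with antibodies to CD3, TCRβ, CD4 and CD8a, and 2 KO and 3 WT mice, each with both organs, were measured on this day. Kidneys were digested with enzymes at 37 degrees and spleens were pressed through a strainer, so organ and dissociation cannot be told apart in any comparison of the organs.

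Tim-3 is a surface receptor that T cells gain after prolonged or strong stimulation. It is often found with Lag3, PD-1 (Pdcd1), TIGIT and CD39 (Entpd1) on cells called exhausted, which keep receiving antigen, lose the factors of naive and memory cells such as Tcf7, and depend on the DNA-binding protein Tox. CD4 T cells with cytotoxic granules carry perforin (Prf1), which opens the target membrane, and granzyme B (Gzmb), a protease that enters through it. Ccl3 and Ccl4 are chemokines that draw other immune cells to the site. Ezh2 is the catalytic subunit of the Polycomb repressive complex 2, which silences genes by methylating histone H3.

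Each cell was assigned to a mouse by a short oligonucleotide on the antibody that coated it. No file pairs the tag names of the matrices with the sequences of the key, so the mouse and genotype of every cell rest on joining them by number, as the maker numbers its tags and as the key is ordered. The sequences below are shown because they are the spleen tags that carried the comparison of genotypes, in lower case throughout since no base is singled out.
KO1: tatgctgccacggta
KO2: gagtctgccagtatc
WT1: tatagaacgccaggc
WT2: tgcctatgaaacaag
WT3: ccgattgtaacagac
The promoters of Havcr2, which defines the cells, and of Ccl3, the effector gene detected in most of them, are given from RefSeq in build GRCm38.p6, from 250 bases before to 50 bases after the start of the gene. Capitals mark the letters of 3 motifs on either strand: GGAAA (NFAT core, TTTCC on the other strand), TGANTCA (AP-1) and TGTGGT (Runx core). NFAT, AP-1 and Runx are transcription factor families that act in activated T cells.
Havcr2 promoter, chr11:46454681-46454980, plus strand: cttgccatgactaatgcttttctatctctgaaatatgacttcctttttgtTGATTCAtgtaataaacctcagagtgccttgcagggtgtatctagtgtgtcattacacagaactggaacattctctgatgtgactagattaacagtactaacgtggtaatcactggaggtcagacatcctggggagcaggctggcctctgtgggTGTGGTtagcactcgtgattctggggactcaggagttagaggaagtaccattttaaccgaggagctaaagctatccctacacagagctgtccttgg
Ccl3 promoter, chr11:83649329-83649628, minus strand: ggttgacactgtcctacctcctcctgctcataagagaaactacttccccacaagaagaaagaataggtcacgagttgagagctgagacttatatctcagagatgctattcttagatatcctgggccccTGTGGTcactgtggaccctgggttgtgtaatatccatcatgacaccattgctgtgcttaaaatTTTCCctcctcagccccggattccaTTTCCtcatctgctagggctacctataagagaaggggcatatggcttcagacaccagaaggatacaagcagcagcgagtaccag
The Havcr2 window held 1 AP-1 and 1 Runx match, and the Ccl3 window held 2 NFAT and 1 Runx matches, none of them overlapping. Among 32851 mouse promoters of the same length, 61.3% held GGAAA, 7.81% held TGANTCA and 16.8% held TGTGGT. A match of letters is a description and not a binding site.

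The genes that name these cells lie at separate places in the genome except for the chemokines. In GRCm38.p6, Havcr2 spans chr11:46454931-46481255, Lag3 chr6:124904359-124912434, Gzmb chr14:56258836-56262334, Prf1 chr10:61297751-61304684 and Susd2 chr10:75636619-75644008. Ccl3 (chr11:83647843-83649378) and Ccl4 (chr11:83648624-83664683) overlap in the annotation.

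The sort and the rule were checked against marker genes. Cd4 was detected in 656 of the 793 Havcr2+ cytotoxic cells (82.7%), and in 4 of the 8 from KO kidneys. The summed level of 15 T cell identity genes in cells of the rule was 8189 to 10256 CPM (the UMIs of a gene scaled to a fixed total of UMIs over the summed cells, so that sums of different size compare) in WT kidneys and 8369 to 10962 CPM in WT spleens, against 6960 to 7336 CPM and 7820 to 7954 CPM in other cells. A list of 7 CD8, γδ T and NK cell genes, which includes genes the rule sets to 0, was at 0 in the cells of 4 of 5 mice in each organ and at 7.15 and 2.05 CPM in WT2. Among all first-day cells Cd8b1 was detected in 11.4% and 15.1% in KO kidneys, against 3.87%, 3.07% and 2.32% in WT kidneys. In spleen it was detected in 4.15% and 8.04%, against 3.14%, 1.95% and 1.77%. Such cells count in the denominators of the shares below. Without cells holding Foxp3, Cd8a or Cd8b1, the KO minus WT difference in share was -3.49 percentage points in kidney and -12.2 in spleen. Kidney tubule genes summed to 0 to 10.0 CPM in cells of the rule. Genes of 11 myeloid markers summed to 122 to 527 CPM in cells of the rule in WT kidneys, against 168 to 186 CPM in other cells, and to 165 to 219 CPM against 147 to 606 CPM in WT spleens.

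Median depth was 4247 UMIs in kidney and 3706 UMIs in spleen for the Havcr2+ cytotoxic cells, against 3368 and 3370 UMIs in other cells, so a UMI of any gene was somewhat easier to find in cells of the rule. No barcode was shared in the 45 pairs of first-day blocks. Among cells with Ccr7 and Lef1 and no Foxp3, a naive profile that should lack Tim-3, Havcr2 was detected in 10 of 482 in kidney (2.07%) and 7 of 1473 in spleen (0.475%) at a median of 4032 and 4036 UMIs, and the whole rule was met by 4 (0.830%) and by 1 (0.0679%). A share of cells at or below these values cannot be read as expression. The targeted gene, Ezh2 (chr6:47530274-47595270), was at 77.9 and 63.9 CPM in other cells of the KO kidneys, against 93.7, 156 and 137 CPM in WT kidneys. In spleen the levels were 53.1 and 55.2 CPM in KO mice, against 69, 157 and 155 CPM in WT mice. The part of Ezh2 that Cre removes is not given in the sources used here and 5′ counts need not come from it, so this level does not check the labels.

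By the rule as stated, Havcr2+ cytotoxic cells were a smaller share of sorted CD4 T cells in each KO mouse than in any WT mouse, and in kidney this order depended on the threshold. In spleen they were 0.529% (7 of 1324 cells) and 0.570% (9 of 1580) in KO mice, against 4.07% (97 of 2386), 18.1% (167 of 922) and 14.2% (304 of 2146) in WT mice. In kidney they were 0.418% (3 of 717) and 2.28% (5 of 219) in KO mice, against 2.89% (47 of 1629), 7.84% (115 of 1467) and 4.12% (39 of 947) in WT mice. The gap between KO2 and WT1 in kidney was small beside their 95% Wilson intervals, which cover counting error only. The kidney genotypes overlapped when Havcr2 had to reach 2 UMIs, with KO2 at 1.37% against WT1 at 0.982%, and when 2 effector genes were required, with KO2 at 1.37% against WT3 at 1.16%. In spleen the genotypes stayed apart under both. The KO mean was 0.549 ± 0.0289% in spleen, against 12.1 ± 7.24% in WT mice (SD, n = 2 and 3), and 1.35 ± 1.32%, against 4.95 ± 2.58%, in kidney. An exact two-sided permutation test over mice gave p = 0.2 in each organ (adjusted over 3 share comparisons p = 0.3), and 2 against 3 mice cannot give a p below 0.1. The kidney share of KO1 was below the 0.830% of kidney cells with a naive profile that met the rule and is at background. Both KO spleens were above the 0.0679% of spleen, which came from 1 of 1473 cells (95% Wilson interval 0.0120 to 0.384%). The intervals of KO1 (0.256 to 1.09%) and KO2 (0.300 to 1.08%) overlap it, so neither spleen is shown to lie above background. Fewer such cells and less RNA of the rule's genes per cell cannot be told apart here.

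**Figure D1:**
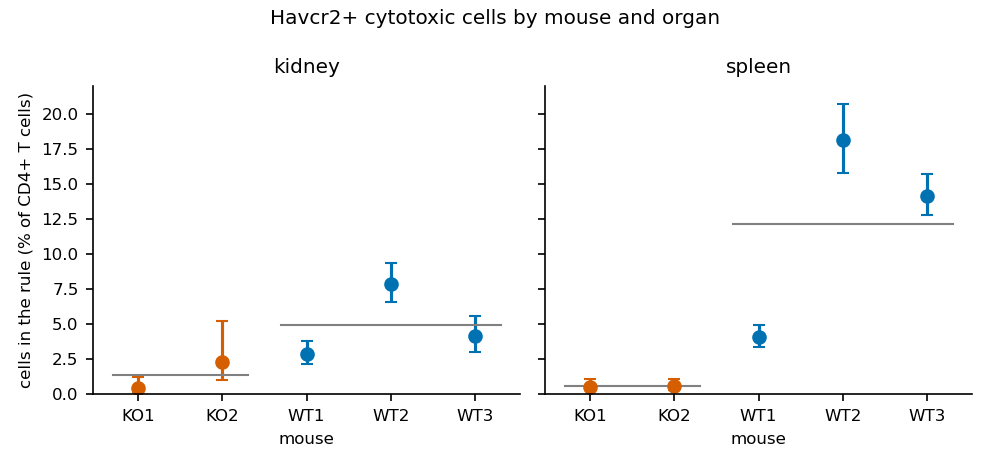
Share of Havcr2+ cytotoxic cells among sorted CD4 T cells, in percent, for each mouse in kidney (left panel) and spleen (right panel), with KO mice left of WT mice. Points are mice, bars are 95% Wilson intervals and grey lines are the means of the genotypes; both KO spleens lie under 0.6% and the 3 WT spleens between 4.07% and 18.1%.

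The share can be split into its parts. Cells with Prf1, Gzmb or Ccl3 and without Foxp3, Cd8a and Cd8b1 were 7.51 ± 0.0598% of spleen cells in KO mice, against 49.1 ± 21.4% in WT mice, and 10.1 ± 3.81% of kidney cells, against 31.4 ± 12.5% (SD, n = 2 and 3; exact permutation p = 0.2 in each organ). Prf1 alone was detected in 9.34% of kidney and 9.78% of spleen cells with a naive profile, so the effector shares of both KO spleens (7.55% and 7.47%) and of the KO1 kidney (7.39%) are at background and are not read as expression. Havcr2 was detected in 7.31 ± 0.443% of those spleen effector cells in KO mice, against 23.0 ± 6.86% in WT mice (exact permutation p = 0.2). In kidney it was detected in 11.8 ± 8.62% in KO mice, against 15.4 ± 2.42% in WT mice (exact permutation p = 0.6). Since the effector calls of both KO spleens and the KO1 kidney are at background, these percentages cannot tell less Havcr2 from a different set of cells counted. Kidney and spleen of the same mouse held 3.51 ± 2.76% and 7.49 ± 8.15% of the cells (SD, n = 5 mice), and the kidney share was lower in 4 of 5 mice, with KO2 the exception (exact permutation p = 0.3125, adjusted p = 0.3125).

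The rule leaves a population close to its thresholds. Of 1268 cells with Havcr2, 203 also held a Foxp3, Cd8a or Cd8b1 UMI, 272 held none of the 3 effector genes, and 793 met the rule. The Havcr2+ cells without an effector gene were 168 of 466 (36.1%) in kidney and 104 of 802 (13.0%) in spleen. Among the members 429 (54.1%) held a single Havcr2 UMI and 199 held 3 or more, and 391 held 1 effector gene, 287 held 2 and 115 held all 3. Ccl3 was the only effector gene in 232, Prf1 in 88 and Gzmb in 71. In 124 cells the call rested on 1 UMI of Havcr2 and 1 UMI of an effector gene.

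Levels just inside and outside the thresholds are given for Ccl4, Lag3 and Pdcd1, as pooled CPM over all mice with no test. In spleen Ccl4 was at 4464 CPM in 275 members with 2 or more Havcr2 UMIs and at 2856 CPM in 309 members with 1, against 2010 CPM in 2008 cells that met every condition but Havcr2 and 823 CPM in 104 cells with Havcr2 and no effector gene. Lag3 was at 1020.3 and 802 CPM in these members, against 438 and 746 CPM in the cells outside. The sets pool mice in different proportions, and mice differed in Lag3, so the order of these levels is not read. Kidney Lag3 was at 471 and 273 CPM in members with 2 or more and with 1 Havcr2 UMI, against 138 and 354 CPM outside. Pdcd1 was at 216 and 137 CPM in spleen members, against 100.5 and 173 CPM outside.

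The 7 label markers were higher in the cells of the rule than in other cells in each of the 3 WT mice and both organs. Cells were chosen by Havcr2, Ccl3, Gzmb and Prf1, and Ccl4, Lag3 and Susd2 were used to name them, so these levels are a description without a test. KO mice had too few such cells (3 to 9 per organ) for a summed profile, and levels are for WT1, WT2 and WT3 in that order unless a KO value is given. Havcr2 stood at 341, 322 and 348 CPM in kidney cells of the rule, against 26.3, 24.8 and 25.5 CPM in other cells, and at 476, 336 and 485 against 9.73, 13.8 and 16.5 CPM in spleen. The groups were far apart, and the 3 mice were close to one another.

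The effector genes of the rule differed in how widely they were shared. Ccl3 stood at 1250.0, 697 and 501 CPM in kidney cells of the rule, against 72.7, 138 and 66.2 CPM, and at 2033, 1062 and 1674, against 142, 523 and 406 CPM, in spleen. It was detected in 57.9% of the kidney and 77.4% of the spleen cells of the rule, against 9.69% and 16.3% of other cells. Prf1 stood at 345, 101 and 121 CPM in kidney, against 63.2, 79.4 and 75.7 CPM, and at 491, 176 and 226, against 59.1, 102 and 77.6 CPM, in spleen. Gzmb stood at 463, 318 and 253 CPM in kidney, against 117, 184 and 107 CPM, and at 309.9, 510.1 and 250.3, against 34.8, 242 and 79.1 CPM, in spleen. WT1 had the highest Prf1 of the 3 mice in both organs, and WT2 the highest Gzmb in spleen.

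Ccl4, which the rule did not use, stood at 1128, 1972 and 2546 CPM in kidney cells of the rule, against 252, 747 and 397 CPM, and at 3778, 2881 and 4192, against 352, 1868 and 1329.7 CPM, in spleen. Lag3, an inhibitory receptor that binds MHC class II, stood at 805, 283 and 153 CPM in kidney, against 252, 100.2 and 44.5 CPM, and at 1858, 432 and 842, against 529, 178 and 204 CPM, in spleen. Lag3 was detected in 55.5% of kidney and 71.7% of spleen cells of the rule, against 18.7% and 34.8% of other cells, and with every cell thinned to 2000 UMIs in 34.0% and 59.7%, against 13.0% and 27.1%. Susd2, a membrane protein with a sushi domain, was rare: it was detected in 5.26% of kidney and 15.9% of spleen cells of the rule, against 2.39% and 4.88% of other cells. Its level was 139.8, 15.5 and 70.6 CPM in spleen, against 22.9, 8.59 and 19.2 CPM. In kidney, pooled over all mice, Susd2 was at 25.5 CPM in the 89 members with 2 or more Havcr2 UMIs. In the 120 members with 1 Havcr2 UMI it was at 5.09 CPM, against 6.37 to 32.3 CPM in the sets outside the rule. The kidney difference in Susd2 thus rests on few cells. WT1 had the highest Lag3 and Susd2 of the WT mice in both organs, inside and outside the rule.

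**Figure D2:**
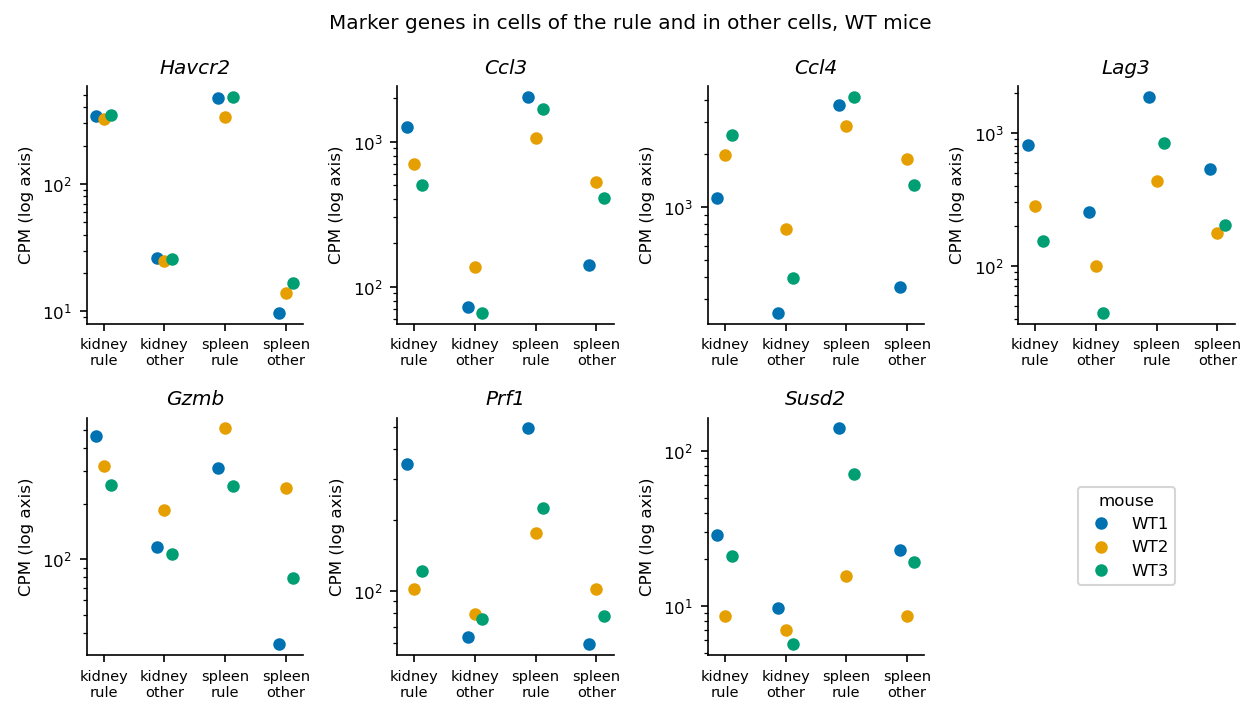
Level of the 7 label markers in CPM on a log axis for WT1, WT2 and WT3. Kidney cells of the rule, other kidney cells, spleen cells of the rule and other spleen cells follow from left to right; in each mouse and organ the cells of the rule lie above the other cells.

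Beyond the rule's genes, the cells of the rule were compared with other cells in sums per mouse, organ and class, with the mouse as a block, over 11040 genes (edgeR quasi-likelihood test, Benjamini-Hochberg adjusted p under 0.05 as the threshold). The cells were chosen in the same data by their transcripts, so these differences describe the chosen cells. In spleen 700 genes were called (6.34% of those tested), 319 higher (2.89%) and 381 lower (3.45%), and in kidney 185 (1.68%), 60 higher (0.543%) and 125 lower (1.13%). The kidney sums held fewer cells (39 to 115 per WT mouse, against 97 to 304 in spleen). Called in both organs were 108 genes, all in the same direction, 22 higher and 86 lower, which is 58.4% of the kidney and 15.4% of the spleen calls. The comparisons share the mice and the choice of genes.

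Genes of naive and memory cells were lower in cells of the rule. In spleen 13 of 16 tested genes fell, against 3.45% of all genes, and none rose (median log2 fold change -1.99, against -0.02 over all genes). In kidney 5 fell, against 1.13% of all genes, and none rose (median -1.16, against -0.06). Tcf7 (TCF-1, the factor of naive, memory and precursor exhausted cells) stood at 15.1, 10.7 and 20.0 CPM in spleen cells of the rule, against 287, 196 and 295 CPM (log2 fold change -4.06 ± 0.19, adjusted p = 2.5e-09). In kidney it stood at 43.1, 14.5 and 42.2 CPM, against 239.9, 157 and 194 CPM (log2 fold change -2.74 ± 0.22, adjusted p = 6.1e-06). The levels did not overlap in either organ.

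Tcf7 was detected in 8.13% of kidney and 5.48% of spleen cells of the rule, against 40.8% and 53.2% of other cells, and at 2000 UMIs per cell in 4.0% and 3.05%, against 30.2% and 42.8%. Ccr7, which guides cells to lymph nodes, stood at 1.89, 0.972 and 5.37 CPM in spleen, against 148, 69.9 and 78.5 CPM (log2 fold change -4.83 ± 0.46, adjusted p = 2e-05), and at 25.1, 8.68 and 0 CPM in kidney, against 441, 76.5 and 103 CPM (log2 fold change -3.82 ± 0.44, adjusted p = 0.0005). Klf2, which keeps T cells in circulation, stood at 287, 403 and 459 CPM in kidney, against 1439, 926 and 946 CPM (log2 fold change -1.61 ± 0.25, adjusted p = 0.005), and fell likewise in spleen (log2 fold change -1.68 ± 0.24, adjusted p = 0.00087). Il7r, the receptor for a survival cytokine, also fell in both organs (-2.40 ± 0.29 in kidney and -2.04 ± 0.24 in spleen on the log2 scale). These 4 genes kept their calls in both organs whichever mouse was left out. Lef1, the partner of Tcf7, fell in spleen (log2 fold change -1.99 ± 0.25, adjusted p = 0.00031) and gave -1.20 in kidney (adjusted p = 0.062). Ifitm1 and Dapl1 had 0 UMIs in WT spleen cells of the rule, which places them at least 27.0-fold and 8.44-fold lower than other cells, on a floor of 3 counts over the group.

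Of 13 inhibitory receptor genes tested in spleen, 4 rose (Entpd1, Pdcd1, Tigit, Cd200), against 2.89% of all genes, and Btla fell, and in kidney none rose and Cd274, which encodes PD-L1, fell. Entpd1 (CD39, which removes extracellular ATP) stood at 259, 167 and 208 CPM in spleen cells of the rule, against 38.3, 81.6 and 64.7 CPM (log2 fold change 1.95 ± 0.28, adjusted p = 0.001). In kidney it stood at 194, 226 and 84.3 CPM, against 55.3, 94.8 and 86.4 CPM (log2 fold change 1.07 ± 0.33, adjusted p = 0.11), and the groups overlapped through WT3. The spleen call for Entpd1 held whichever of the 5 mice was left out. Cd200 in spleen lost its call without WT1 (adjusted p = 0.19) or WT2 (adjusted p = 0.12), and Cd274 in kidney without WT1, WT2 or WT3 (adjusted p = 0.093, 0.08 and 0.094).

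Pdcd1 (PD-1) stood at 282, 90.4 and 180.4 CPM in spleen, against 104, 56.4 and 74.4 CPM (log2 fold change 1.29 ± 0.24, adjusted p = 0.0054), and at 503, 116 and 132 CPM in kidney, against 192, 62.6 and 80.7 CPM (log2 fold change 0.98 ± 0.27, adjusted p = 0.073). Every WT mouse was higher within both organs, although the groups overlapped across mice, and WT1 was high in both classes. Tigit stood at 576, 383 and 584 CPM in spleen, against 266, 253 and 276 CPM (log2 fold change 1.00 ± 0.20, adjusted p = 0.0092). The Pdcd1 call in spleen was lost without WT3 (adjusted p = 0.064) and the Tigit call without WT1 (adjusted p = 0.063) or WT3 (adjusted p = 0.12). Ctla4, an inhibitory receptor of activated T cells, gave 0.20 in spleen (adjusted p = 0.68) and 0.04 in kidney (adjusted p = 0.97).

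Among 22 transcription factors of exhausted and effector cells, 5 rose in spleen (Prdm1, Irf8, Maf, Ikzf3, Id2), against 2.89% of all genes. Id2 rose in kidney, against 0.543% of all genes, and none was lower in either organ. Prdm1 (Blimp-1), a repressor of the memory program and an inducer of Il10, stood at 191, 143 and 204 CPM in spleen, against 49.8, 88.0 and 69.7 CPM (log2 fold change 1.47 ± 0.20, adjusted p = 0.00077). Id2, an inhibitor of E proteins in effector cells, stood at 1075, 1079.5 and 1154 CPM in spleen, against 354, 692 and 593 CPM (log2 fold change 1.13 ± 0.19, adjusted p = 0.0029), and at 1645, 1397 and 1070.0 CPM in kidney, against 777, 719 and 639.8 CPM (log2 fold change 0.84 ± 0.20, adjusted p = 0.045). The kidney call was lost without KO2 (adjusted p = 0.059), WT1 (0.22), WT2 (0.18) or WT3 (0.11). In spleen Maf gave 0.77 ± 0.14 (adjusted p = 0.0038) and lost its call without WT3 (adjusted p = 0.065), Irf8 without WT1 (0.20) or WT2 (0.19), and Ikzf3 without WT1 (0.078) or WT3 (0.069).

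Tox, the factor most often tied to exhaustion, did not pass the test in either organ. It stood at 1028, 453 and 795 CPM in spleen, against 756, 403 and 481 CPM (log2 fold change 0.52 ± 0.16, adjusted p = 0.065), and at 539, 398 and 337 CPM in kidney, against 454, 313 and 383 CPM (log2 fold change 0.11 ± 0.18, adjusted p = 0.84). Tox was already frequent outside the rule, detected in 56.4% of other kidney and 68.8% of other spleen cells, against 78.5% and 86.6% in cells of the rule. Eomes, a T-box factor of cytotoxic cells, gave 0.25 in spleen (adjusted p = 0.65) and 0.10 in kidney (adjusted p = 0.93). Against other kidney cells, neither Tox nor any of the 13 tested inhibitory receptor genes passed as higher.

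The granule genes moved both ways. Of 13 tested in spleen, leaving out the rule's genes, 2 rose (Nkg7, Tnfsf10) and 4 fell (Gzmm, Ctsw, Lamp1, Crtam), against 2.89% and 3.45% of all genes. None passed in kidney. Nkg7, a granule membrane protein needed for degranulation, stood at 4142, 2948 and 3983 CPM in spleen, against 912, 2068 and 1952 CPM (log2 fold change 1.42 ± 0.29, adjusted p = 0.0088). Ctsw, a protease of cytotoxic cells, stood at 45.4, 56.4 and 39.9 CPM, against 100.1, 81.9 and 107 CPM (log2 fold change -1.0 ± 0.18, adjusted p = 0.0042). Crtam, an adhesion receptor of CD4 cells on the way to cytotoxicity, stood at 41.6, 38.9 and 30.7 CPM, against 177, 87.7 and 116 CPM (log2 fold change -1.67 ± 0.34, adjusted p = 0.0096). Levels of these 3 genes did not overlap between the classes, and all 3 calls were lost without WT3 (adjusted p = 0.061 for Nkg7, 0.078 for Ctsw and 0.13 for Crtam).

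Among chemokines and cytokines in spleen, Ccl5 and 3 of 10 cytokine genes (Il10, Il21, Csf1) rose, against 2.89% of all genes, and none fell. Il10, which restrains inflammation, stood at 174, 59.3 and 103 CPM in spleen cells of the rule, against 57.2, 31.3 and 36.0 CPM (log2 fold change 1.47 ± 0.23, adjusted p = 0.0017), and kept its call whichever mouse was left out. It came from 287 UMIs in 118 of 568 WT cells. Il21 in spleen (log2 fold change 1.37 ± 0.38, adjusted p = 0.042) lost its call without KO2 (adjusted p = 0.063), WT2 (0.068) or WT3 (0.49). Ccl5, a chemokine kept ready in effector T cells, stood at 21865, 35776 and 40117 CPM, against 3558, 24310.5 and 14382 CPM (log2 fold change 1.82 ± 0.43, adjusted p = 0.021), and its call was lost without WT1 (adjusted p = 0.12) or WT3 (adjusted p = 0.098). Ifng stood at 856, 566 and 1096 CPM in spleen, against 206, 720.0 and 751 CPM (log2 fold change 0.91 ± 0.41, adjusted p = 0.21), and overlapped. The only kidney call among chemokines was Ccl1, where 1 cell held 98.4% of 128 UMIs.

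Killer lectin receptors activate or inhibit cytotoxic cells on contact with MHC class I or its relatives. In spleen 4 of 11 genes rose (Klrk1, Klrd1, Klrc1, Klrc2), against 2.89% of all genes, with none lower (median 1.69), and none passed in kidney (median 0.67). Klrd1 (CD94, the shared partner of the NKG2 chains) stood at 117, 22.3 and 16.1 CPM in spleen, against 19.4, 8.59 and 5.42 CPM (log2 fold change 2.26 ± 0.34, adjusted p = 0.0013), and kept its call whichever mouse was left out. Klrc1 (NKG2A) stood at 123, 3.89 and 6.14 CPM, against 13.8, 7.67 and 3.81 CPM (log2 fold change 2.17 ± 0.59, adjusted p = 0.039), and without WT1 its adjusted p was 0.86. WT1 alone was high in Klrc1, and in WT2 the cells of the rule were lower than the other cells. Klrk1 (NKG2D) also rose (log2 fold change 1.73 ± 0.46, adjusted p = 0.035) and lost its call without WT1 (adjusted p = 0.13).

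Among 18 adhesion and trafficking genes, 3 rose in spleen, Cxcr6 and Itgb2 among them, and Itgae fell. For this and the other spleen lists of this paragraph, the shares over all genes were 2.89% higher and 3.45% lower. Cxcr6, a receptor of tissue-resident T cells, stood at 85.0, 19.4 and 86.0 CPM, against 21.1, 17.8 and 38.7 CPM (log2 fold change 1.26 ± 0.32, adjusted p = 0.029), a call lost without WT1 (adjusted p = 0.24) or WT3 (0.15). Of 15 T cell identity genes, 5 rose in spleen (Cd3e, Cd3g, Cd247, Cd4, Zap70) and none fell. Cd4 itself gave 0.63 ± 0.15 (adjusted p = 0.021), a call lost without WT1 (0.15) or WT3 (0.12). In the remaining lists in spleen, 3 of 16 glycolysis genes rose and none fell, 2 of 12 interferon genes fell, 1 of 11 follicular helper genes rose and 5 fell, 2 of 17 immediate early genes rose and 2 fell, 1 of 10 regulatory T cell genes rose and 1 fell, and 1 of 13 TNF family genes fell. None of 11 genes of the Polycomb repressive complex 2 list passed in either organ (median 0.10 in spleen and 0.05 in kidney). Ezh2 stood at 108, 217 and 144 CPM in spleen cells of the rule, against 69, 157 and 155 CPM (log2 fold change 0.37 ± 0.16, adjusted p = 0.20), and at 64.7, 187 and 206 CPM in kidney, against 93.7, 156 and 137 CPM (log2 fold change 0.10 ± 0.19, adjusted p = 0.87).

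Cell cycle genes rose for 5 of 16 in kidney (Top2a, Cdk1, Stmn1, Ccna2, Cenpf) and 2 of 16 in spleen (Mki67, Mcm5), against 0.543% and 2.89% of all genes, with none lower. Mki67 or Top2a was detected in 66 of 209 kidney cells of the rule (31.6%) and 182 of 584 in spleen (31.2%), against 16.6% and 14.7% of other cells. Top2a, which untangles DNA before division, stood at 86.2, 278 and 163 CPM in kidney, against 63.9, 107 and 72.5 CPM (log2 fold change 1.01 ± 0.21, adjusted p = 0.027). Tpx2, a spindle protein, stood at 35.9, 81.0 and 47.4 CPM, against 12.8, 25 and 11.0 CPM (log2 fold change 1.71 ± 0.20, adjusted p = 0.0005). Both calls were lost without WT2 (adjusted p = 0.41 for Top2a and 0.078 for Tpx2), and Top2a also without WT3 (adjusted p = 0.15). Within cells of 3043 to 5527 UMIs, Top2a in kidney gave 0.31 (adjusted p = 0.78) and Tpx2 0.79 (adjusted p = 0.80), and with every Mki67+ or Top2a+ cell left out Tpx2 gave 1.7 (adjusted p = 0.33).

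Several of the genes with the largest rise in spleen belonged to none of these groups. Ociad2 stood at 111, 91.3 and 79.1 CPM, against 14.9, 34.7 and 22.1 CPM (log2 fold change 2.11 ± 0.25, adjusted p = 0.0002). Gsto1, a glutathione transferase, stood at 108, 71.9 and 117 CPM, against 13.7, 38.6 and 32.1 CPM (log2 fold change 1.96 ± 0.28, adjusted p = 0.00091). Perp, a p53 target, stood at 108, 62.2 and 121 CPM, against 34.3, 30.4 and 36.2 CPM (log2 fold change 1.69 ± 0.22, adjusted p = 0.00049). Morrbid, a long noncoding RNA that represses the death gene Bcl2l11, stood at 117, 96.2 and 95.2 CPM, against 26.2, 54.6 and 39.4 CPM (log2 fold change 1.52 ± 0.24, adjusted p = 0.0017). In each of these 4 genes the lowest mouse inside the rule was above the highest outside it, and the calls held whichever mouse was left out.

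**Figure D3:**
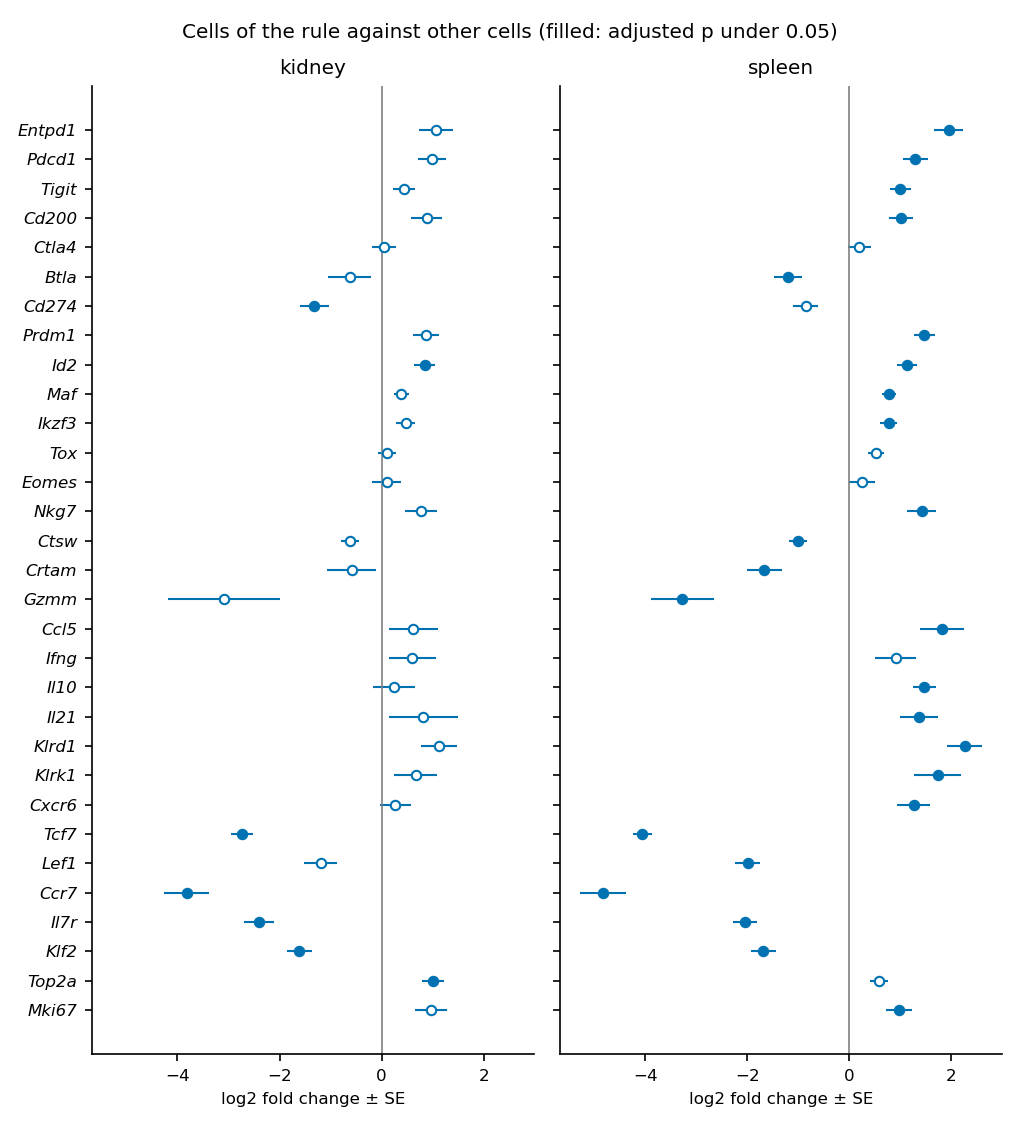
Log2 fold change of cells of the rule over other cells for 31 genes in kidney (left panel) and spleen (right panel), with bars of 1 SE and filled points for an adjusted p under 0.05. Tcf7 and Ccr7 lie far left of 0 in both organs, Entpd1 and Klrd1 are filled in spleen alone, and Tox is open in both.

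Against effector cells that met every condition but Havcr2, a comparison added after the data were seen, part of the spleen profile kept its call. Entpd1 gave 1.24 (adjusted p = 0.003), Tigit 0.92 (adjusted p = 0.0053), Pdcd1 0.93 (adjusted p = 0.028) and Prdm1 1.04 (adjusted p = 0.02) on the log2 scale. Klrd1 gave 1.24 (adjusted p = 0.012) and Nkg7 0.73 (adjusted p = 0.009). Tcf7 remained lower at -3.50 in spleen and -1.91 in kidney (adjusted p = 0.00083). Il10 gave 0.83 (adjusted p = 0.056), Ccl5 0.82 (adjusted p = 0.068) and Cxcr6 0.78 (adjusted p = 0.33). Thus Entpd1, Tigit, Pdcd1, Prdm1, Klrd1 and Nkg7 passed with effector genes required on both sides, and Il10, Ccl5 and Cxcr6 did not.

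A larger population that overlaps these cells is that of CD4 T cells with Gzmk, a granzyme of effector memory cells, and Eomes. Gzmk was detected in 704 of the 793 cells of the rule (88.8%), and Gzmk and Eomes together in 536 (67.6%). Among all Gzmk+ Eomes+ cells, 144 of 1668 in kidney (8.63%) and 392 of 2319 in spleen (16.9%) met the rule. Against the 1524 kidney and 1927 spleen Gzmk+ Eomes+ cells outside the rule, 448 of 8169 genes were called in spleen (5.48%), 163 higher (2%) and 285 lower (3.49%), and 91 in kidney (1.11%), 43 higher (0.526%) and 48 lower (0.588%). The median depth of those cells was 3396 UMIs in kidney and 3395 UMIs in spleen.

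Some inhibitory receptors were higher in the cells of the rule than in Gzmk+ Eomes+ cells. Pdcd1 and Cd200 rose in kidney and Pdcd1, Tigit, Entpd1 and Cd200 in spleen, of 10 tested in each, against 0.526% and 2% of all genes, with none lower. Pdcd1 stood at 533, 119.6 and 139 CPM in kidney cells of the rule, against 255, 52.5 and 67.9 CPM (log2 fold change 1.17 ± 0.26, adjusted p = 0.022). In spleen it stood at 306, 95.3 and 189.8 CPM, against 96.3, 55.9 and 87.5 CPM (log2 fold change 1.19 ± 0.23, adjusted p = 0.0025). Entpd1 stood at 281, 176 and 219 CPM in spleen, against 60.5, 83.6 and 73.9 CPM (log2 fold change 1.59 ± 0.21, adjusted p = 4.2e-05), with no overlap, and gave 0.88 in kidney (adjusted p = 0.077). Tigit stood at 626, 404 and 615 CPM in spleen, against 247, 278 and 325 CPM (log2 fold change 0.97 ± 0.15, adjusted p = 0.00026), and gave 0.15 in kidney (adjusted p = 0.75). The 3 spleen calls held whichever mouse was left out. The kidney call for Pdcd1 was lost without WT2 (adjusted p = 0.13).

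Of 20 exhaustion and effector factors, 6 rose in spleen against Gzmk+ Eomes+ cells (Prdm1, Batf, Irf8, Maf, Id2, Zeb2), where 2% of all genes rose. Irf4 rose in kidney, where 0.526% of all genes rose, and no factor was lower. Prdm1 stood at 207, 151 and 215 CPM in spleen, against 54.8, 85.8 and 69.7 CPM (log2 fold change 1.44 ± 0.18, adjusted p = 1.8e-05), with no overlap, and Id2 gave 1.10 ± 0.22 (adjusted p = 0.0027). Both held whichever mouse was left out. Batf lost its call without KO1 (adjusted p = 0.051), KO2 (0.052), WT1 (0.47) or WT3 (0.14), and Irf4 in kidney without WT2 (0.23). Tox gave 0.29 in spleen (adjusted p = 0.36) and 0.10 in kidney (adjusted p = 0.88).

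Of 7 cytokine genes, 4 passed with a higher mean in spleen (Il21, Il10, Csf1, Spp1) and Ifng rose in kidney, against 2% and 0.526% of all genes. In spleen Spp1 was higher in the cells of the rule in 1 of 3 mice and lower in 2, and its call was lost without WT1 (adjusted p = 0.73). Il10 stood at 189, 62.5 and 108 CPM in spleen, against 67.6, 29.8 and 37.0 CPM (log2 fold change 1.39 ± 0.18, adjusted p = 4e-05), and Il21, a helper cytokine for B cells and cytotoxic cells, gave 1.91 ± 0.29 (adjusted p = 0.00026). Ifng stood at 865, 502 and 451 CPM in kidney, against 209, 256 and 317 CPM (log2 fold change 1.18 ± 0.28, adjusted p = 0.039), with no overlap, and its call was lost without KO2 (adjusted p = 0.069) or WT2 (adjusted p = 0.099). Areg, a growth factor of tissue repair, stood at 127, 18.4 and 51.7 CPM in spleen, against 27.4, 4.79 and 11.4 CPM (log2 fold change 2.07 ± 0.33, adjusted p = 0.00034), and each mouse was higher within itself. Il2ra (CD25) stood at 53.3, 7.47 and 39.0 CPM in kidney, against 3.06, 1.54 and 1.12 CPM (log2 fold change 3.65 ± 0.76, adjusted p = 0.015), in cells that by the rule had no Foxp3 UMI.

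The memory genes were lower than in Gzmk+ Eomes+ cells too: 12 of 15 fell in spleen, where Satb1 rose, and 3 fell in kidney, against 3.49% and 0.588% of all genes lower. Tcf7 stood at 16.4, 11.3 and 21.0 CPM in spleen, against 363, 199 and 303 CPM (log2 fold change -4.04 ± 0.22, adjusted p = 1e-11), and at 45.7, 14.9 and 44.6 CPM in kidney, against 167, 147 and 177 CPM (log2 fold change -2.51 ± 0.26, adjusted p = 2.5e-06). The Tcf7 levels did not overlap in either organ. Crtam stood at 45.2, 41.0 and 32.3 CPM in spleen, against 395, 90.5 and 144 CPM (log2 fold change -2.21 ± 0.28, adjusted p = 2.3e-05). Nkg7 (0.92 ± 0.15, adjusted p = 0.00054), Ccl5 (1.29 ± 0.25, adjusted p = 0.0025) and Klrd1 (1.92 ± 0.31, adjusted p = 0.00037) rose in spleen. Klrd1 also rose in kidney (1.36 ± 0.31, adjusted p = 0.029), where Nkg7 (0.57, adjusted p = 0.079) and Ccl5 (0.24, adjusted p = 0.77) did not pass. In kidney Irf7, a factor of the interferon response, stood at 76.2, 111 and 167 CPM, against 174, 253 and 395 CPM (log2 fold change -1.23 ± 0.19, adjusted p = 0.00094). None of the 16 cell cycle genes passed in kidney or in spleen, and none of 10 Polycomb genes in spleen.

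The cells of the rule were not alike in the 3 WT mice, and WT1 stood apart in both organs. Gzmk was at 546, 1144 and 1186 CPM in kidney and 484, 1095 and 1211 CPM in spleen for WT1, WT2 and WT3, so WT1 had the lowest level in each. Ccr2, a receptor for inflammatory chemokines, was at 79.0, 438 and 379.5 CPM in kidney and 37.8, 385 and 339 CPM in spleen. Cxcr3, which guides T cells to interferon-inflamed tissue, was at 39.5, 137 and 179 CPM and 28.3, 179 and 216 CPM. Klrg1, a marker of terminal effector cells, was at 0, 66.5 and 68.5 CPM and 1.89, 59.3 and 52.2 CPM. In all 4 genes WT1 was the lowest mouse in both organs.

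Other genes ran the opposite way, with WT1 the highest. Klrk1 was at 129, 8.68 and 5.27 CPM in kidney and 35.9, 8.74 and 9.21 CPM in spleen, Klrc1 at 183, 17.4 and 0 CPM and 123, 3.89 and 6.14 CPM, and Klrd1 at 223, 24.6 and 42.2 CPM and 117, 22.3 and 16.1 CPM. Cd200, a ligand that quiets myeloid cells, was at 201, 15.9 and 31.6 CPM and 221, 31.1 and 34.6 CPM. Other cells of WT1 were also highest in Cd200, at 85.4, 10.5 and 16.7 CPM in kidney and 110.4, 12 and 27.5 CPM in spleen for the same mice. WT1 also differed among all first-day cells. Foxp3 was detected in 5.77% of them in kidney, against 0.341% and 1.16% in WT2 and WT3. In spleen it was detected in 18.4%, against 0.759% and 3.22%. The pattern of WT1 is therefore not shown to be particular to the cells of the rule. With 1 mouse on one side there is no test of how WT1 differed.

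**Figure D4:**
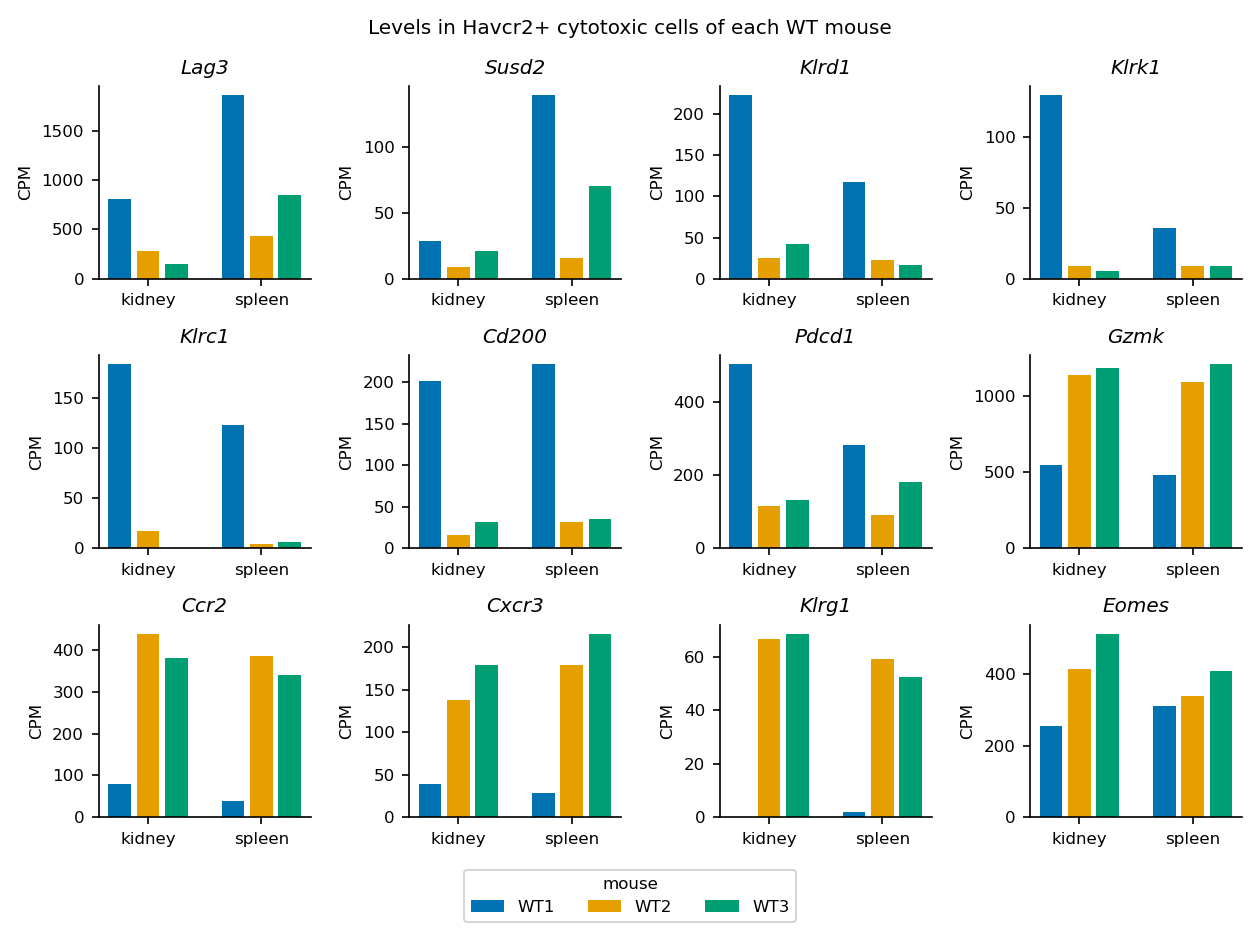
Level in CPM of 12 genes in the cells of the rule of WT1, WT2 and WT3, in kidney and in spleen, with 1 bar per mouse and organ. Lag3, Susd2, Klrd1, Klrk1, Klrc1 and Cd200 are highest in WT1 in both organs, and Gzmk, Ccr2, Cxcr3 and Klrg1 are lowest in WT1 in both.

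Kidney and spleen cells of the rule were compared within the 3 WT mice. Of 11043 genes, 361 were called (3.27%), 297 higher (2.69%) and 64 lower (0.58%) in kidney. In other cells of all 5 mice 3368 were called (30.5%), from sums of many more cells. Of the 361 genes, 337 were called in the same direction in other cells, which is 93.4% of the 361 and 10.0% of the 3368, and 1 in the opposite direction. No gene passed the test of whether the organ difference differed between the classes (edgeR, 0 of 11043), with 724 at an unadjusted p under 0.05 and 9 called by DESeq2. The organ difference of the cells of the rule was therefore not shown to differ from that of other cells for any gene by the edgeR test. Most genes below have the value in other cells beside them.

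Crem, Ramp3 and Ifngr1 were higher in kidney. Crem, a repressor induced by cAMP, stood at 277, 101 and 126 CPM in kidney cells of the rule, against 28.3, 22.3 and 21.5 CPM in spleen (log2 fold change 2.67 ± 0.25, adjusted p = 2.8e-05), and gave 3.08 in other cells. Ramp3, a partner of the receptors for adrenomedullin and related peptides, stood at 75.4, 24.6 and 63.3 CPM, against 1.89, 2.91 and 1.54 CPM (log2 fold change 4.36 ± 0.66, adjusted p = 0.0014), from 50 UMIs in 30 cells, and gave 3.76 in other cells. Ifngr1, the interferon-γ receptor chain that binds its ligand, stood at 456, 574 and 643 CPM, against 71.8, 99.1 and 92.1 CPM (log2 fold change 2.64 ± 0.16, adjusted p = 3.7e-07), and gave 2.43 in other cells. The organs did not overlap for any of the 3, and the calls held whichever mouse was left out.

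Of 22 exhaustion and effector factors, 5 rose in kidney (Nr4a3, Nr4a1, Rbpj, Bhlhe40, Runx3), against 2.69% of all genes, and Tox fell, against 0.58%. Nr4a3, an orphan receptor induced by antigen, stood at 582, 288 and 285 CPM, against 75.6, 29.1 and 93.7 CPM (log2 fold change 2.53 ± 0.28, adjusted p = 9.1e-05), and gave 2.11 in other cells. Nr4a1 stood at 729, 551 and 501 CPM, against 202, 163 and 306 CPM (log2 fold change 1.43 ± 0.25, adjusted p = 0.0046), gave 1.07 in other cells and lost its call without WT2 (adjusted p = 0.19). Tox stood at 539, 398 and 337 CPM, against 1028, 453 and 795 CPM (log2 fold change -0.76 ± 0.19, adjusted p = 0.034), gave -0.34 in other cells (adjusted p = 0.059) and lost its call without WT1 (adjusted p = 0.14) or WT3 (adjusted p = 0.29).

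Immediate early genes split, with 7 of 17 higher and 3 lower in kidney, against 2.69% and 0.58% of all genes. Fosl2 stood at 266, 106 and 111 CPM, against 20.8, 20.4 and 27.6 CPM (log2 fold change 2.57 ± 0.27, adjusted p = 6.6e-05), with 2.92 in other cells. Fos stood at 237, 403 and 717 CPM, against 998, 910.4 and 2257 CPM (log2 fold change -1.58 ± 0.22, adjusted p = 0.00057), with -1.32 in other cells. Dusp1, a phosphatase that ends kinase signals, stood at 618, 708 and 822 CPM, against 1638, 1319.5 and 2389 CPM (log2 fold change -1.26 ± 0.17, adjusted p = 0.00041), with -1.02 in other cells. Its relative Dusp2 stood at 934, 1310.0 and 1792 CPM, against 293, 225 and 518 CPM (log2 fold change 1.97 ± 0.22, adjusted p = 9.4e-05), with 1.91 in other cells. Genes of this group are known to respond within minutes to tissue handling, which cannot be told apart from organ here and was not tested.

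Of 13 granule genes, 2 (Ctsw and Serpinb9) rose in kidney, against 2.69% of all genes. Ctsw stood at 190.4, 109.9 and 142 CPM, against 45.4, 56.4 and 39.9 CPM (log2 fold change 1.55 ± 0.22, adjusted p = 0.00078), with 1.16 in other cells. Serpinb9, an inhibitor of granzyme B that shields the killer cell, stood at 61.1, 120.0 and 121 CPM, against 22.7, 33.0 and 23.0 CPM (log2 fold change 1.89 ± 0.25, adjusted p = 0.00032), with 1.92 in other cells. Tgfb1, which drives residency and regulatory programs, stood at 521, 625 and 685 CPM, against 195, 176 and 241 CPM (log2 fold change 1.58 ± 0.15, adjusted p = 3.6e-05), and gave 1.31 in other cells. The organs did not overlap for these 3 genes, and the calls held whichever mouse was left out.

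Il10 ran the other way and stood at 28.7, 17.4 and 42.2 CPM in kidney, against 174, 59.3 and 103 CPM in spleen (log2 fold change -2.01 ± 0.38, adjusted p = 0.0063), with -0.79 in other cells, a call lost without WT1 (adjusted p = 0.087) or WT2 (adjusted p = 0.091). Cxcr6 stood at 237, 153 and 142 CPM in kidney, against 85.0, 19.4 and 86.0 CPM (log2 fold change 1.63 ± 0.36, adjusted p = 0.019), with 2.62 in other cells, a call lost without WT1 (adjusted p = 0.092) or WT2 (adjusted p = 0.21). None of 14 inhibitory receptor genes and none of 6 chemokine genes passed. Lag3 gave -1.36 (adjusted p = 0.062), Ccl4 -1.12 (adjusted p = 0.32), Susd2 -1.82 (adjusted p = 0.12) and Pdcd1 0.35 (adjusted p = 0.61). By the levels given above, Lag3 and Ccl4 were also lower in kidney than in spleen in other cells of each WT mouse, and Pdcd1 was higher. Apoe and H2-Eb1 in kidney cells of the rule rested largely on single cells: 1 of 201 WT cells held 96.0% of 198 Apoe UMIs, and 1 held 76.7% of 249 H2-Eb1 UMIs. Cst3, of the myeloid list, was higher in kidney cells of the rule than in Gzmk+ Eomes+ cells in 3 of 3 mice (edgeR log2 fold change 1.02 ± 0.19, adjusted p = 0.0067).

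**Figure D5:**
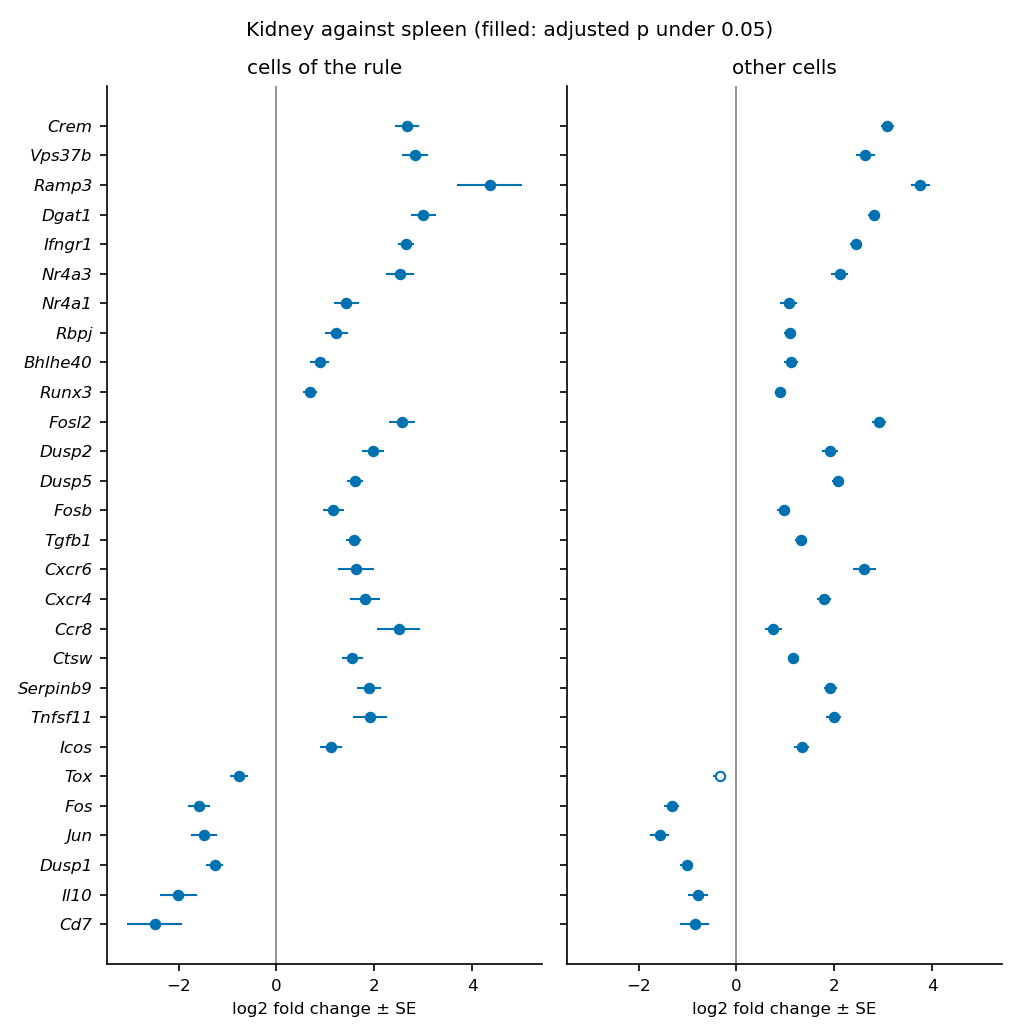
Log2 fold change of kidney over spleen for 28 genes in cells of the rule (left panel) and in other cells (right panel), with bars of 1 SE and filled points for an adjusted p under 0.05. Ramp3, Crem and Ifngr1 lie right of 0 in both panels, and Fos and Dusp1 left of 0.

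The KO mice had 8 such cells in kidney and 16 in spleen, which held 29077 and 19418 UMIs in kidney and 30867 and 57767 UMIs in spleen for KO1 and KO2. With a minimum of 10 cells per sum no genotype test of expression could be fitted, so levels are given with exact Poisson 95% intervals, which cover counting error only. Here CPM use the total UMIs of the sum without further scaling. Havcr2 in spleen cells of the rule was at 356 CPM (178 to 638, 11 UMIs) and 346 CPM (211 to 535, 20 UMIs) in KO mice, against 535, 355 and 490 CPM in WT mice. Ccl4 in spleen was at 1814 CPM (1370 to 2356, 56 UMIs) and 2804 CPM (2389 to 3271, 162 UMIs) in KO mice, against 4244, 3046 and 4241 CPM in WT mice. Lag3 was at 1361 and 796 CPM in KO spleens, against 2087, 457 and 852 CPM in WT spleens. The Ccl4 interval of KO2 covers the level of WT2, 1 cell held 35.8% of the 218 Ccl4 UMIs of the KO spleens, and Lag3 overlapped between the genotypes.

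Gzmb and Prf1 chose the cells and are a description: in spleen Gzmb was at 1102 and 346 CPM in KO mice, against 348, 539 and 253 CPM in WT mice, and Prf1 at 518 and 346 CPM, against 552, 186 and 228 CPM. Tox was at 1102 and 1108 CPM in KO spleens, Nkg7 at 4179 and 4016 CPM, and Tcf7 had 0 UMIs in KO1 and 1 UMI in KO2. Ezh2 had 0 of 30867 UMIs in KO1 (up to 120 CPM by the exact interval) and 2 UMIs in KO2 (34.6 CPM, 4.19 to 125) in spleen. In kidney it had 4 UMIs in KO1 (138 CPM, 37.5 to 352), 1 or more in each of the 3 cells, and 0 UMIs in KO2 (up to 190 CPM). These counts are too low to set against WT mice.

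In a fit added after the data were seen that admits sums of 5 or more cells, no gene passed for KO against WT in the cells of the rule in spleen: 0 of 6536 (edgeR, 565 at an unadjusted p under 0.05). In kidney only KO2 reached 5 cells, so the 0 of 5336 genes that passed (edgeR, 503 at an unadjusted p under 0.05) compare 1 KO mouse with the WT mice and are no test of genotype. For the difference of the genotype effect between the classes in spleen, 17 of 10444 genes passed (0.163%), 13 with a higher (0.124%) and 4 with a lower (0.0383%) KO effect in the cells of the rule. Of these, Ifitm1, Cxcl2, Il1b, Ifitm2 and Atf3 had all their KO UMIs in 1 of 16 cells.

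T cell receptor segments were read from the gene counts, as the variable segments with most UMIs in a cell. WT3 spleen cells of the rule repeated a few pairs of α and β segments. The pair Trav8d-1 with Trbv31 was found in 32 of 251 such cells with both segments (12.7%), against 31 of 1390 other spleen cells of WT3 (2.23%) and 29 of 6905 cells of the other mice (0.420%), and in 2 of 33 WT3 kidney cells of the rule. Trav8d-1 with Trbv19 was found in 17 of 251 (6.77%), against 1.73% of other spleen cells. Trav14-1 with Trbv20 was frequent on both sides, in 27 of 251 (10.8%), against 126 of 1390 (9.06%). In WT2, Trav2 with Trbv20 was found in 8 of 134 spleen cells (5.97%) and 5 of 95 kidney cells of the rule (5.26%), against 0.712% and 0.985% of other cells in those organs.

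WT1 showed few repeats, with 73 different pairs in 75 spleen cells and 26 in 28 kidney cells of the rule, while WT3 had 94 different pairs in 251 spleen cells and WT2 83 in 134. A shared pair of variable segments is less than a shared clone, since the joining regions and the T cell receptor library of the series were not analysed here, and the numbers of cells differ between mice.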

How the data were processed

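The deposited files were one matrix of UMI counts per organ with 32285 genes and 10 hash tags, and a key of tags to mice. The genome build was mm10 (GRCm38), and the tools named are Seurat 5.0.1 and Cell Ranger 7.1.0, as the submitters' processing notes list them. Tag numbers were joined to the key in its order and the maker's numbering, a pairing that no file states. The authors deposited these UMI counts without normalization, as whole numbers. First-day blocks were those whose cells had HTO9 and HTO10 UMIs. Of 13368 cells, 31 were left out (under 200 genes, 10% or more mitochondrial UMIs, or a leading tag other than that of the block). Another tag led in 13 first-day cells. Doublets were not removed: 39 of the 793 cells lay in the top 2% of UMIs of their mouse and organ.

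Counts were summed per mouse, organ and class where at least 10 cells were present, which left WT1, WT2 and WT3 for the cells of the rule. Sums were compared with edgeR 4.0.16 in R 4.3.3 (TMM, filterByExpr, quasi-likelihood test, Benjamini-Hochberg), with the mouse as a block because organs and classes came from the same animals. KO sums of other cells entered the same fit and bear on its spread. DESeq2 1.42.0 was an alternative. Shares were compared by exact permutation over mice (Python 3.11.15). The pipeline was tested on simulated data. Beside 25 gene lists (295 genes), genes named were up to 10 in each direction by fold change among those called, with a mean of at least 20 CPM and the same direction in every mouse. The members and lists were chosen with earlier results of these data known. The labels call the mice separate animals. Permutation p-values for genotype rest on the spread between mice, and the one for organ on differences within mice. With the mouse as a block, edgeR p-values rest on the spread that remains once differences between mice are removed.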

Additional observations from a re-analysis of the deposited data

Results flagged for a closer look

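In the cells of the second experimental day, which enter no comparison above, 26 of 2399 distinct barcodes met the rule (1.08%, 95% Wilson interval 0.741 to 1.58%), above the 0.125% that a count of 0 would allow at that number of cells. The interval includes the 0.830% of kidney cells with a naive profile that met the rule, so the share is not shown to lie above that background. The second-day blocks of both organs drew on 1 set of 2399 barcodes, and HTO1 led 97.8 to 99.0% of the cells of each block, so the share is tied to no mouse, organ or genotype.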

How the results depend on the processing

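Of 1947 alternative values for 120 named gene results, 1650 kept direction and side of the threshold, 294 lost the threshold and 3 reversed. The reversed ones were kidney cell cycle genes against other cells: Cks1b at -6.63 within the UMI window and -0.36 with Mki67+ or Top2a+ cells left out, and Nusap1 at -0.33 with those cells left out. The KO minus WT difference in share was -1.32 (Havcr2 at 2 or more UMIs) and -0.942 percentage points (2 or more effector genes) in kidney, and -5.30 (Havcr2 at 2 or more UMIs) in spleen. Without single mice it ran from -4.63 to -2.15 in kidney and from -15.6 to -8.57 in spleen, and the kidney minus spleen difference from -5.40 to -2.41. The counts that follow are numbers of called genes. The main fit called 185 in kidney and 700 in spleen against other cells. Between organs it called 361 in the cells of the rule and 3368 in other cells. Against Gzmk+ Eomes+ cells it called 91 in kidney and 448 in spleen. Without the replicate block for the mouse the counts were 65 in kidney and 376 in spleen against other cells. Between organs they were 208 in the cells of the rule and 1727 in other cells. Against Gzmk+ Eomes+ cells they were 4 in kidney and 99 in spleen. DESeq2 called 449 in kidney, 144 against Gzmk+ Eomes+ cells in kidney, and 9 for the organ and class interaction. Without a filter on low counts the counts were 702 in kidney and 1270 in spleen against other cells, 675 between organs in the cells of the rule, 73 for the interaction and 310 against Gzmk+ Eomes+ cells in kidney. The UMI window gave 167 between organs, and leaving out Mki67+ or Top2a+ cells gave 60 in kidney and 206 between organs. Other cells without Foxp3 and CD8 transcripts gave 352 in kidney. Effector cells without Havcr2 as the comparator gave 31 in kidney, 178 in spleen, 1520 between organs in that comparator and 1 for the interaction. Leaving out 1 mouse in turn gave 35 to 263 in kidney (42 without WT2, 35 without WT3), 118 to 613 in spleen (118 without WT3), 75 to 363 between organs in the cells of the rule (75 without WT2), 2406 to 2890 in other cells, and 36 to 175 in kidney (36 without WT2) and 187 to 442 in spleen (187 without WT3) against Gzmk+ Eomes+ cells. Of the list genes called, 4 of 17 in kidney and 14 of 66 in spleen against other cells kept the call whichever of the 5 mice was left out, and 9 of 33 between organs. Against Gzmk+ Eomes+ cells 4 of 15 in kidney and 24 of 58 in spleen did so. The cause of these shifts was not tested. The KO mice had 8 cells of the rule in kidney and 16 in spleen.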
